A study of Homo sapiens with 10 samples.

Results

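The HOX genes described here are the probe sets annotated to exactly 1 gene whose symbol is HOXA, HOXB, HOXC or HOXD followed by a number; 1 further gene matching that pattern was set aside by the rule. These were 42 probe sets of 27 genes, out of 54675 probe sets on the array and 41091 that name a single gene. The choice rests on gene names alone and used no measured value. HOXA was represented by 1 gene (HOXA2, 1 probe set), HOXB by 9 genes (17 probe sets), HOXC by 9 genes (9 probe sets) and HOXD by 8 genes (15 probe sets). Other HOXA genes have no probe set named for them alone in the annotation used and were not analysed here, and 3 probe sets that name a HOX gene together with other genes were left out.

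RNA came from RWPE-1, an immortalised human prostate epithelial line that does not form tumours, and hybridised to Affymetrix HG-U133 Plus 2.0 arrays, which measure each gene with 1 or more probe sets. The cells had been transduced with MSCV retroviruses and stable clones selected. All of them expressed BirA, a biotin ligase: 3 arrays are labelled BirA and ERG, 4 BirA and ETV1, and 3 BirA alone, the control. ERG and ETV1 are ETS-family transcription factors that gene fusions activate in prostate cancer. The submitters' design note mentions 3 biological replicates, although ETV1 has 4 labelled arrays, and whether a group's arrays stem from different clones is not said. The p-values therefore measure the spread between these arrays, which may be technical. The silencing experiments in LNCaP and VCaP named in the series title were not analysed here.

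HOX genes encode homeodomain transcription factors that give cells their position along the body axis. They lie in the HOXA, HOXB, HOXC and HOXD clusters, and their order along each cluster mirrors where and when they are switched on in the embryo, from anterior genes with low numbers to posterior genes with high numbers. Adult epithelia keep part of that code: cells of the urogenital tract, prostate included, express mainly central and posterior members, and in mice the posterior Hoxd genes shape the branching of the prostate ducts. HOX proteins bind DNA together with the TALE homeodomain proteins of the PBX, MEIS and PKNOX families, Polycomb and Trithorax complexes keep the clusters silent or active, and retinoic acid induces anterior members.

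Before the HOX values, a difference between the arrays themselves has to be given. Across all probe sets the median intensity was 48.5 to 52.6 on the arrays labelled ERG, against 70.9 to 75.5 on ETV1 arrays and 71.4 to 73.4 on control arrays. The 3'/5' signal ratio of the ACTB control probe sets, which climbs as RNA is degraded, was 2.75 to 3.07 on the arrays labelled ERG, 1.24 to 1.30 on ETV1 arrays and 1.35 to 1.40 on control arrays, while the GAPDH ratio was 0.946 to 1.04 on the arrays labelled ERG, 0.994 to 1.05 on ETV1 arrays and 0.893 to 0.931 on control arrays. The rank correlation over all probe sets was 0.766 to 0.811 for pairs of an array labelled ERG with a control array, and 0.956 to 0.969 for pairs of an ETV1 array with a control array. Of 4 tested ETV1 probe sets 3 were higher on ETV1 arrays than on control arrays: 217053_x_at averaged 1320 ± 355 on ETV1 arrays (SD, n = 4) and 88.1 ± 29.0 on control arrays (SD, n = 3). The fourth, 221910_at, did not pass, with 90.5 ± 13.9 on ETV1 arrays and 80.3 ± 3.03 on control arrays (log2 fold change 0.14, adjusted p = 0.66). The ERG probe sets do not settle theirs, since 211626_x_at averaged 36.5 ± 12.3 on the arrays labelled ERG and 9.04 ± 3.23 on control arrays, below the filter, and 222079_at averaged 9.43 ± 1.57 on the arrays labelled ERG and 186 ± 4.61 on control arrays (SD, n = 3 each). Also below the filter, 213541_s_at averaged 33.5 on the arrays labelled ERG and 25.5 on control arrays. For 241926_s_at the means were 26.4 on the arrays labelled ERG and 17.2 on control arrays. Both overlapped between these groups. Every direction given for the arrays labelled ERG rests on that label, and the part of their lower median and higher ACTB ratio in the results was not tested.

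Intensities are the deposited values on a linear scale, and fold changes are differences of log2(intensity + 16), which understate the change of dim probe sets. Testing was limited to probe sets exceeding the median of the array on 3 or more arrays. Of the 42 HOX probe sets, 29 of 23 genes were tested. The other 13 ran from 1 to 63.3 in intensity, and HOXB1, HOXB2, HOXC12 and HOXD12 had no tested probe set. Of the 29, 5 exceeded the median on arrays labelled ERG alone (HOXA2, HOXB7 204778_x_at, HOXC5, HOXC9 and HOXD1 205975_s_at) and 2 on no array labelled ERG (HOXB5 205600_x_at and HOXB8 229667_s_at). These 7 entered the test through the group where they are high, so their calls and fold changes against that group are given as descriptions and support nothing. HOXB6 205366_s_at and HOXC10 exceeded the median on 3 arrays labelled ERG but only 1 other array, so they needed the arrays labelled ERG to be tested. HOXC4 and HOXB4 exceeded it on only 1 and 2 arrays labelled ERG, so they needed the ETV1 and control arrays. Calls of these genes for the arrays labelled ERG are likewise descriptions. In bulk RNA, fewer cells with a transcript and less transcript per cell cannot be told apart. Summed over the 15 HOXD probe sets, intensity per array was 5215 to 5754 on arrays labelled ERG, 2778 to 3101 on ETV1 arrays and 4047 to 5252 on control arrays. The 9 HOXC probe sets summed to 2306 to 2484 on arrays labelled ERG, 1969 to 2104 on ETV1 arrays and 2261 to 2686 on control arrays. The 17 HOXB probe sets summed to 2550 to 3375 on arrays labelled ERG, 2012 to 2317 on ETV1 arrays and 1878 to 1993 on control arrays. ETV1 arrays thus lay below control arrays for HOXD and HOXC and above them for HOXB, without overlap in each case.

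**Figure D1:**
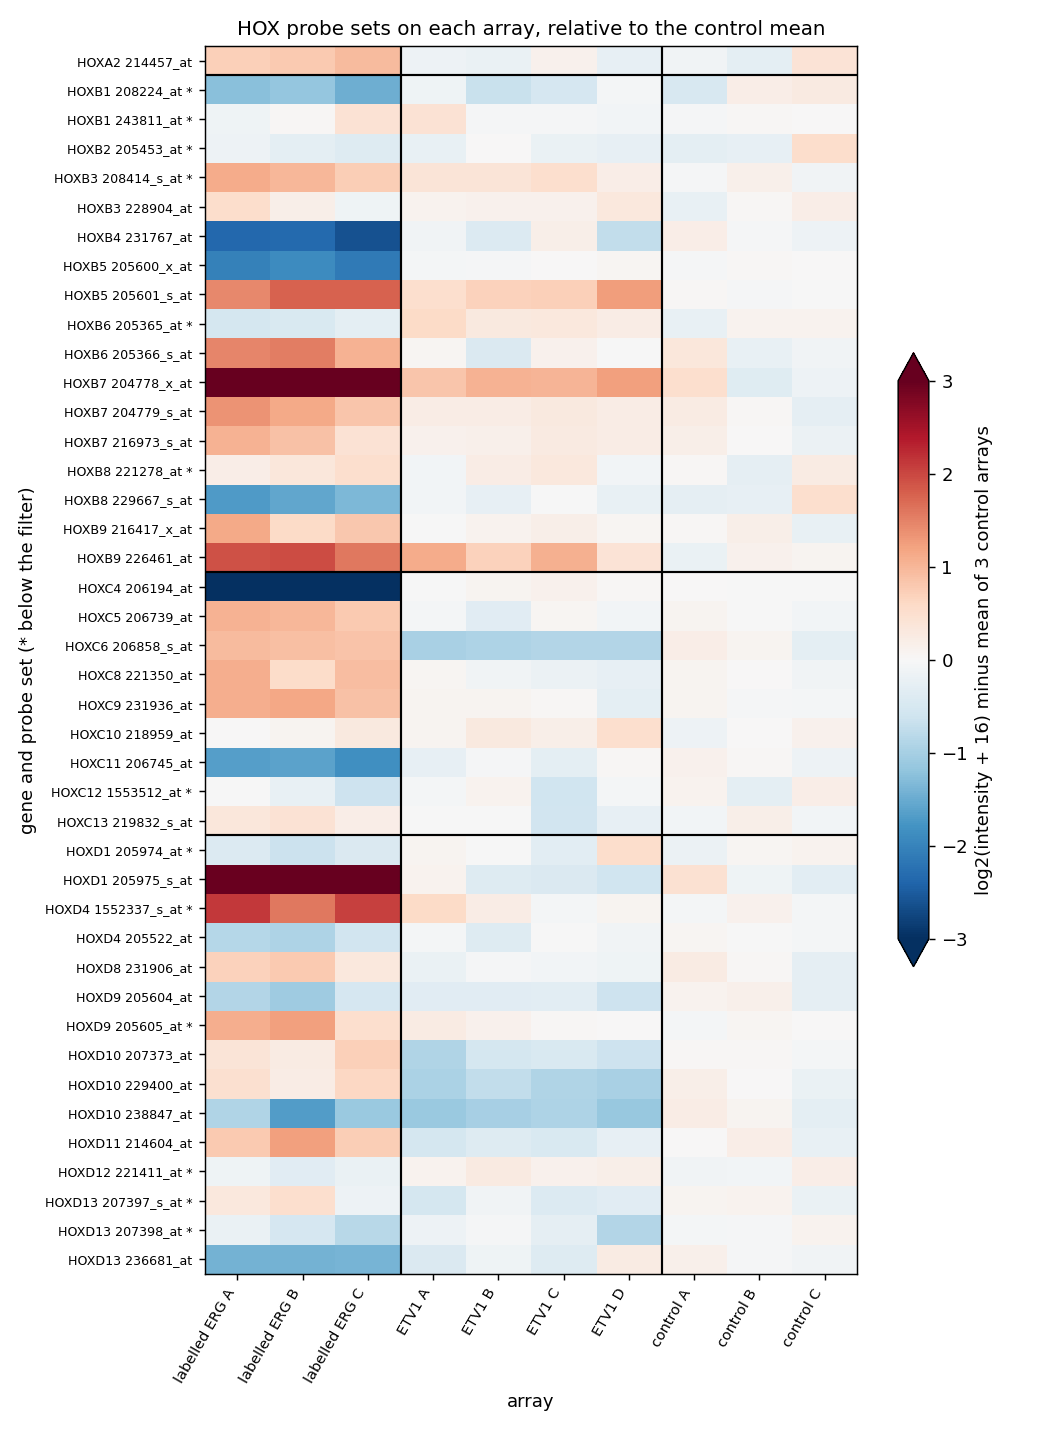
Each row is a HOX probe set and each column an array; colour gives log2(intensity + 16) minus the mean of the 3 control arrays, with the scale ending at 3 in either direction and an asterisk for probe sets below the filter. The arrays labelled ERG carry strong colours both ways, while on ETV1 arrays the blue rows are HOXC6 and the 3 HOXD10 probe sets and the redder rows lie in HOXB.

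The first question was what ETV1 did to the HOX genes of these cells. On ETV1 arrays HOXD10 and HOXC6 fell, by 0.62 to 1.05 on the log2 scale, and single probe sets of HOXB5, HOXB7 and HOXB9 were higher. No other HOX gene passed the test. In all, 3 of 29 HOX probe sets were higher and 4 lower than control at a Benjamini-Hochberg adjusted p under 0.05 in limma, which is 24.1% of them. Over all 25969 tested probe sets the share called was 23.5%, with 10.4% higher and 13.1% lower, so the HOX share is near the background and is not a result about HOX genes as a family. The median log2 fold change was -0.12 over the HOX probe sets and -0.03 over all tested probe sets. For each of the 7 called probe sets the ETV1 and control arrays did not overlap, which held for 22% of all tested probe sets. Without the filter, the same counts of 3 higher and 4 lower stood among 42 HOX probe sets (16.7%, against 12.2% of all probe sets, 5.77% higher and 6.39% lower).

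HOXD10, a posterior gene that patterns the limb and the lumbar spinal cord, fell on all 3 of its probe sets. For 229400_at the intensities were 965, 1128, 997 and 955 on ETV1 arrays, against 2130, 1890 and 1642 on control arrays. Every ETV1 array lay below every control array. The means were 1011 ± 79.6 on ETV1 arrays (SD, n = 4) and 1887 ± 244 on control arrays (SD, n = 3), a log2 fold change of -0.88 (SE 0.14, adjusted p = 0.00029). For 238847_at the values were 461, 500, 525 and 451 on ETV1 arrays, against 1187, 1072 and 819 on control arrays, with a log2 fold change of -1.05 (SE 0.18, adjusted p = 0.00049). The third, 207373_at, gave 164, 219, 230 and 204 on ETV1 arrays and 326, 331 and 305 on control arrays, with a log2 fold change of -0.62 (SE 0.15, adjusted p = 0.0062). No other HOX gene had more than 1 probe set pass in this comparison. Over all genes with several probe sets called between ETV1 and control arrays, 1147 in number, 46 had calls in opposite directions, so calls of 1 gene mostly ran the same way.

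HOXC6, a central gene that tests for prostate cancer measure in urine because tumours express it strongly, was the other HOX gene that fell. Its single probe set, 206858_s_at, read 434, 452, 464 and 465 on ETV1 arrays, against 1011, 928 and 706 on control arrays. The ETV1 arrays lay close together and the control arrays were more spread. The means were 454 ± 14.2 on ETV1 arrays (SD, n = 4) and 882 ± 158 on control arrays (SD, n = 3), a log2 fold change of -0.92 (SE 0.14, adjusted p = 0.00016). The suffix of this probe set marks probes that can match several transcripts.

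HOXD11, the neighbour of HOXD10 and a patterning gene of the forearm and, with its HOXA paralog, the kidney, did not pass. It read 237, 261, 248 and 291 on ETV1 arrays, against 352, 400 and 297 on control arrays, with a log2 fold change of -0.40 (SE 0.15, adjusted p = 0.069). Its groups did not overlap either. HOXD9 behaved likewise on 205604_at, with a log2 fold change of -0.40 (SE 0.16, adjusted p = 0.081). Under quantile normalization 6 HOX probe sets were called lower in place of 4.

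Among HOXB genes, HOXB5, which acts in blood vessel and gut nerve development, was higher on 205601_s_at. Its values were 71.7, 83.5, 86.2 and 131 on ETV1 arrays, against 47.9, 44.0 and 45.9 on control arrays, with a log2 fold change of 0.79 (SE 0.16, adjusted p = 0.0024). The other HOXB5 probe set, 205600_x_at, read 187 to 205 on ETV1 arrays and 190 to 199 on control arrays (log2 fold change -0.01, adjusted p = 0.98). The 2 probe sets thus differ on whether HOXB5 was higher.

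HOXB9, which in mice takes part in mammary gland growth, was higher on 226461_at. It read 199, 146, 194 and 117 on ETV1 arrays, against 71.3, 93.1 and 89.8 on control arrays, with a log2 fold change of 0.82 (SE 0.17, adjusted p = 0.0029). Its second probe set, 216417_x_at, had a log2 fold change of 0.09 (SE 0.15, adjusted p = 0.74). HOXB7, which drives proliferation and mesenchymal change when forced into breast epithelial cells, was higher on 204778_x_at. That probe set lay below the array median on every ETV1 and control array, with 26.2, 33.1, 31.9 and 39.1 on ETV1 arrays, against 17.5, 2.45 and 5.47 on control arrays (log2 fold change 1.03, SE 0.19, adjusted p = 0.00082). At such levels the size depends on the processing, and it ran from 0.42 to 2.16 over the alternatives. Leaving out the 7 probe sets that entered the test through 1 kind of array, 2 of 22 were higher and 4 lower on ETV1 arrays. The 2 other HOXB7 probe sets had log2 fold changes of 0.24 (adjusted p = 0.28) and 0.19 (adjusted p = 0.40). With 1 probe set per gene, the one highest on average, 2 HOX genes were called lower and 0 higher, so the 3 calls in HOXB depend on which probe set stands for the gene.

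**Figure D2:**
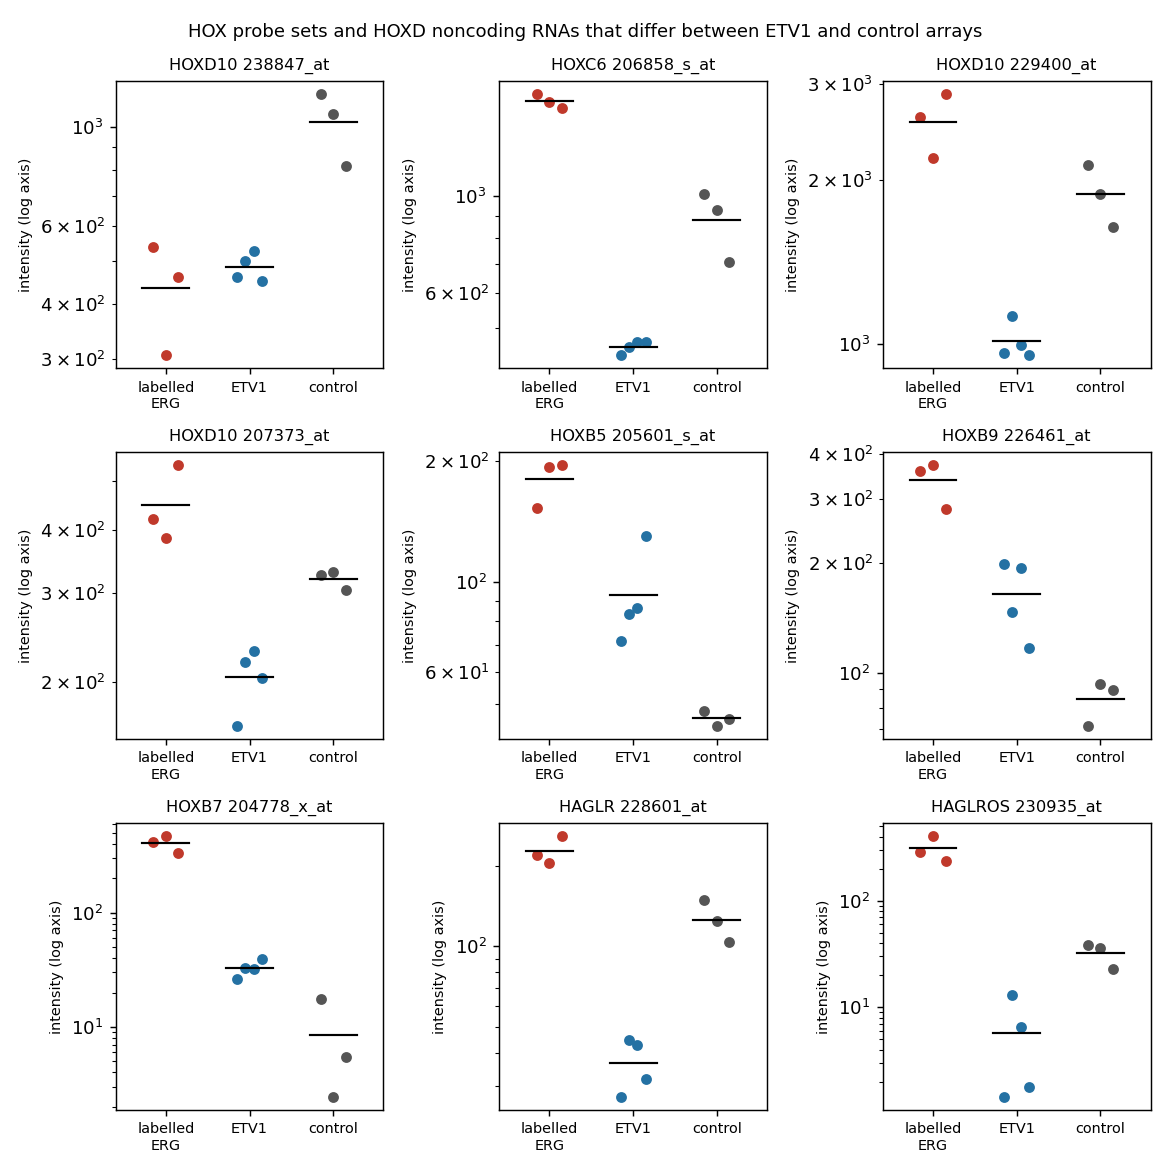
Points are intensities of single arrays on a log axis and bars are group means, for the 7 HOX probe sets called between ETV1 and control arrays and for 2 noncoding RNAs of the HOXD cluster. The 4 ETV1 arrays lie apart from the 3 control arrays in every panel, and the arrays labelled ERG lie above both in every panel but that of HOXD10 238847_at.

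The noncoding RNAs of the HOX clusters were listed beside the genes, and 9 probe sets of 8 of them were tested. On ETV1 arrays 2 of the 9 were lower than control and none was higher, a share near the 23.5% called over all tested probe sets, and both lie in HOXD. HAGLR, an antisense transcript next to HOXD1, read 27.4, 44.6, 42.9 and 31.9 on ETV1 arrays, against 149, 125 and 104 on control arrays (228601_at, log2 fold change -1.43, SE 0.16, adjusted p = 9.6e-06). A second HAGLR probe set, 242042_s_at, had a log2 fold change of -0.09 (adjusted p = 0.71). HAGLROS, transcribed from the opposite strand of HAGLR, read 1.44, 13.1, 6.55 and 1.78 on ETV1 arrays, against 38.1, 36.1 and 23.0 on control arrays (230935_at, log2 fold change -1.17, SE 0.20, adjusted p = 0.00059). Both groups of HAGLROS values lie below the array median, the probe set having entered the test through the arrays labelled ERG alone, and its log2 fold change ran from -2.65 to -0.47 over the alternatives. The 4 ETV1 arrays lie below the 3 control arrays.

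Promoter windows were available from RefSeq on GRCh38.p14 for 11 of the 27 genes, each running from 250 bases before to 50 bases after an annotated start. The windows of HOXD10 (chr2:176116528-176116827, plus strand), its neighbour HOXD11 (chr2:176107030-176107329, plus strand) and HAGLROS (chr2:176177916-176178215, plus strand) are shown because their ETV1 and control arrays did not overlap. Capitals mark GGAA or its reverse complement TTCC, the core that ETS factors recognise, and CACGTG, an E-box that reads the same on both strands.
HOXD10: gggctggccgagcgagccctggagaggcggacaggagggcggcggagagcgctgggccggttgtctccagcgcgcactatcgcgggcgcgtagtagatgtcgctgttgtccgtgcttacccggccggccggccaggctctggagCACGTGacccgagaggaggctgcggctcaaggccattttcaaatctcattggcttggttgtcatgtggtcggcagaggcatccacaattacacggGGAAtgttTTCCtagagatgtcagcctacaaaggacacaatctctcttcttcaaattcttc
HOXD11: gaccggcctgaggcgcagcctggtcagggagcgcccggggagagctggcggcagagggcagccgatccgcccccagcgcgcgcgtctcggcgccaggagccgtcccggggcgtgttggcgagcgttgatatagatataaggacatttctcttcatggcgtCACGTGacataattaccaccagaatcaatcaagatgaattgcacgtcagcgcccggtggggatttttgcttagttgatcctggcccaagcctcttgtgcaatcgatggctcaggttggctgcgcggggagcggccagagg
HAGLROS: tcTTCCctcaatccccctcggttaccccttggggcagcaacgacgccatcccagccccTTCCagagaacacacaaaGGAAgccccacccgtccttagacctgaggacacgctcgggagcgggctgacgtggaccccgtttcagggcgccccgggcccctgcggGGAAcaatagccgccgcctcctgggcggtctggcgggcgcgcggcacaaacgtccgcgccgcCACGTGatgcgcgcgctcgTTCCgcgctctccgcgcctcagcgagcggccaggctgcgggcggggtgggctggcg
HOXD10 holds 2 copies of the ETS core, HOXD11 has 0 and HAGLROS has 5. HOXC4 and HOXC5 share 1 window, so the 11 genes have 10 different windows. GGAA or TTCC was in 8 of these 10 and in 95.5% of 35116 promoter windows, and the longer CCGGAA (or TTCCGG) was in 0 of 10 and in 17.2% of all. CACGTG, a motif chosen after the sequences had been read, was in 4 of 10, all of them among the 7 HOXD windows (HOXD13, HOXD11, HOXD10 and HOXD1), and in 7.26% of all windows. The motifs do not overlap one another in the 3 sequences shown. A match describes the letters of the window and does not show binding.

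The second comparison set the arrays labelled ERG against control. Here most HOX probe sets differed, in both directions: HOXC11 was far lower and HOXB9 far higher. Of 29 tested HOX probe sets 17 were higher and 9 lower, 89.7% in all; over all tested probe sets 78.4% were called, 43.3% higher and 35.1% lower. The median log2 fold change was 0.60 over the HOX probe sets and 0.17 over all tested probe sets. Quantile normalization moved the median of all probe sets to 0.05 and median centring to 0.58, and the sizes below should be read against that shift. Without the filter, 20 of 42 HOX probe sets were higher and 12 lower (76.2%, against 65.9% of all probe sets, 34.6% higher and 31.3% lower). Arrays did not overlap for any of the 26 called, and for 74.7% of all tested probe sets. The 5 probe sets that entered the test through the arrays labelled ERG alone are all among the 17 higher, and the 2 that entered without them among the 9 lower. The other 22 had 12 higher and 7 lower. They still hold HOXB6 and HOXC10, which needed the arrays labelled ERG to be tested. HOXC4 and HOXB4, which needed the ETV1 and control arrays, are among them too. The counts of these 22 are therefore descriptions as well.

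HOXC4, a central gene active in lymphoid cells and reported in prostate tumours, had the largest fall. It read 20.0, 43.3 and 52.9 on the arrays labelled ERG, against 741, 736 and 738 on control arrays, and averaged 38.7 ± 16.9 on the arrays labelled ERG and 738 ± 2.74 on control arrays (SD, n = 3 each). The log2 fold change was -3.84 (SE 0.19, adjusted p = 6.4e-11). HOXC5, which lies next to it, went the other way, with 69.9, 66.2 and 55.5 on the arrays labelled ERG and 28.2, 25 and 23.4 on control arrays (log2 fold change 0.94, SE 0.14, adjusted p = 1.9e-05). RefSeq lists the same window for both genes (chr12:54016638-54016937, plus strand); transcripts of the 2 genes can start from a shared upstream promoter. It is shown, with the ETS core in capitals, because it is listed for 2 genes whose probe sets passed in opposite directions. The call of HOXC5 is a description, since it entered the test through the arrays labelled ERG alone. RefSeq gives HOXC6 the same gene start, 54016888, but no window was available for it.
HOXC4: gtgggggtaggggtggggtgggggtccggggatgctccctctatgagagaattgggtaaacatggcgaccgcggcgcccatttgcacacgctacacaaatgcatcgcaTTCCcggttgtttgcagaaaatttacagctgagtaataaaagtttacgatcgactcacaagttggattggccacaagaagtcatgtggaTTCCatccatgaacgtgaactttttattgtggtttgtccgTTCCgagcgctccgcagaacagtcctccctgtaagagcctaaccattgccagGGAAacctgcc
This window holds 4 copies of the core and no CACGTG.

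HOXC6 was higher on the arrays labelled ERG, with 1704, 1632 and 1584 there against 1011, 928 and 706 on control arrays (log2 fold change 0.90, SE 0.15, adjusted p = 3.4e-05). HOXC8 and HOXC9, central and posterior genes of the trunk skeleton and its motor neurons, were also higher. HOXC9 read 151, 160 and 129 on the arrays labelled ERG and 67.9, 61.2 and 59.8 on control arrays (log2 fold change 1.04, SE 0.15), and HOXC8 had a log2 fold change of 0.86 (SE 0.16). HOXC11, a posterior gene of the hindlimb region, fell: it read 159, 167 and 139 on the arrays labelled ERG, against 589, 552 and 481 on control arrays (log2 fold change -1.70, SE 0.15, adjusted p = 3.0e-08). HOXC10, a gene of lumbar motor neurons, and HOXC13, which controls hair keratins, did not pass, with log2 fold changes of 0.13 (adjusted p = 0.43) and 0.32 (adjusted p = 0.081). Under quantile normalization both were called higher, at 0.52 (adjusted p = 0.0020) for HOXC10 and 0.65 (adjusted p = 0.0028) for HOXC13. Without HOXC6 the remaining 8 HOXC probe sets summed to 722 to 781 on arrays labelled ERG, 1532 to 1653 on ETV1 arrays and 1555 to 1675 on control arrays, so the ETV1 and control sums overlapped once HOXC6 was left out.

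In the HOXB cluster, HOXB4, known for expanding blood stem cells, fell to 57.0, 58.2 and 45.3 on the arrays labelled ERG, against 409, 349 and 319 on control arrays (log2 fold change -2.43, SE 0.20, adjusted p = 1.5e-08). HOXB8, studied in mouse myeloid cells and microglia, was also lower on 229667_s_at, with 17.0, 20.2 and 26.2 on the arrays labelled ERG and 73.6, 74.1 and 137 on control arrays (log2 fold change -1.54, SE 0.19). HOXB7 was higher on all 3 probe sets. Its dim probe set 204778_x_at read 419, 470 and 333 on the arrays labelled ERG, against 17.5, 2.45 and 5.47 on control arrays (log2 fold change 4.15, SE 0.20, adjusted p = 5.3e-11). Its control values lie below the array median, and the log2 fold change ran from 2.70 to 5.76 over the alternatives. The 2 others changed less, with log2 fold changes of 1.11 (SE 0.16) and 0.79 (SE 0.16). HOXB9 passed on both probe sets: 226461_at read 360, 373 and 283 on the arrays labelled ERG and 71.3, 93.1 and 89.8 on control arrays (log2 fold change 1.81, SE 0.19), and 216417_x_at had a log2 fold change of 0.84 (SE 0.16). HOXB6 was higher on 205366_s_at (log2 fold change 1.35, SE 0.19), a description, since this probe set needed the arrays labelled ERG to be tested. HOXB3, a gene of the hindbrain and thyroid, did not pass on 228904_at (log2 fold change 0.19, adjusted p = 0.32). Without HOXB7 the other 14 HOXB probe sets summed to 1282 to 1567 on arrays labelled ERG, 1312 to 1565 on ETV1 arrays and 1294 to 1378 on control arrays, and these ranges overlap.

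In HOXD, HOXD1, an anterior gene that in mice patterns pain-sensing neurons, was higher on 205975_s_at. It read 373, 458 and 383 on the arrays labelled ERG, against 53.2, 29.5 and 24.1 on control arrays (log2 fold change 3.06, SE 0.21, adjusted p = 2.0e-09). Every control and ETV1 array was below its median for this probe set, and the log2 fold change ran from 2.24 to 3.55 over the alternatives. HOXD11 was higher too, with 607, 838 and 589 on the arrays labelled ERG and 352, 400 and 297 on control arrays (log2 fold change 0.92, SE 0.16, adjusted p = 8.5e-05), as was HOXD8 (log2 fold change 0.60, SE 0.16). HOXD13, the most posterior gene of the cluster, whose mutations cause fused digits, was lower on 236681_at, at 83.8, 84.2 and 86.0 on the arrays labelled ERG, against 281, 243 and 230 on control arrays (log2 fold change -1.40, SE 0.17, adjusted p = 1.4e-06). HOXD4, a hindbrain and neck gene, and HOXD9 were lower on their tested probe sets, with log2 fold changes of -0.78 (SE 0.15) and -0.82 (SE 0.17). In HOXA, HOXA2, which patterns the second pharyngeal arch, was higher, with 79.4, 85.6 and 96.6 on the arrays labelled ERG and 38.4, 31.4 and 61.7 on control arrays (log2 fold change 0.81, SE 0.18, adjusted p = 0.00051).

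The window of HOXD1 (chr2:176188418-176188717, plus strand) is shown because its probe set had the largest HOXD change and because it overlaps 2 of the RefSeq windows of HAGLR on the minus strand, by 195 and 102 bases. HAGLR was higher on the same arrays, with 219, 205 and 259 on arrays labelled ERG and 149, 125 and 104 on control arrays for 228601_at (log2 fold change 0.79, SE 0.17, adjusted p = 0.00046). The capitals mark CACGTG.
HOXD1: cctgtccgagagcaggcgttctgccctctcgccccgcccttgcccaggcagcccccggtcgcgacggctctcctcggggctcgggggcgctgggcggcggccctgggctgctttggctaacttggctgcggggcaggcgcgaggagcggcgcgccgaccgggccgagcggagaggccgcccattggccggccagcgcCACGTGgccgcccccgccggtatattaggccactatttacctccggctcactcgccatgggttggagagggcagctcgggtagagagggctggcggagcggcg
The ETS core was not found in this window. HAGLROS, whose window shares 136 bases with another HAGLR window, read 289, 407 and 238 on the arrays labelled ERG, against 38.1, 36.1 and 23.0 on control arrays (log2 fold change 2.74, SE 0.22, adjusted p = 1.2e-08). This call is a description, since HAGLROS entered the test through the arrays labelled ERG alone. HOXD-AS2, another antisense RNA of the cluster, read 1775, 1849 and 760 on the arrays labelled ERG and 225, 215 and 165 on control arrays (log2 fold change 2.67, SE 0.27). Array C labelled ERG was well below the other 2 for HOXD-AS2, and still above every control array. HOTTIP, at the posterior end of HOXA, where it brings the WDR5 and MLL activating complex to its neighbours, was lower, with 74.4, 73.4 and 49.8 on the arrays labelled ERG, against 410, 426 and 783 on control arrays (log2 fold change -2.72, SE 0.24). HOTAIR, a HOXC transcript known for silencing HOXD genes with Polycomb, was higher (log2 fold change 1.18, SE 0.15, adjusted p = 2.8e-06). All 9 noncoding probe sets were called, 6 higher and 3 lower, where 78.4% of all tested probe sets were. The 6 higher include HAGLROS, so this count is a description as well.

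Probe sets of 1 gene often disagreed on the arrays labelled ERG. Among HOX genes with several called probe sets, HOXB5 and HOXD10 had calls in opposite directions, and HOXB7 and HOXB9 did not. For HOXB5, 205600_x_at read 35.6, 41.4 and 32.5 on the arrays labelled ERG, against 190, 199 and 196 on control arrays (log2 fold change -2.01, SE 0.13), while 205601_s_at read 153, 194 and 196 on the arrays labelled ERG, against 47.9, 44.0 and 45.9 on control arrays (log2 fold change 1.66, SE 0.18). The direction of HOXB5 on these arrays is therefore not settled. For HOXD10, 238847_at read 538, 307 and 459 on the arrays labelled ERG, against 1187, 1072 and 819 on control arrays (log2 fold change -1.23, SE 0.19, adjusted p = 1.9e-05). The other HOXD10 probe sets were higher: 229400_at had 2614, 2194 and 2877 on the arrays labelled ERG and 2130, 1890 and 1642 on control arrays (log2 fold change 0.44, SE 0.15, adjusted p = 0.015), and 207373_at had 421, 385 and 539 there and 326, 331 and 305 on control arrays (log2 fold change 0.45, SE 0.16, adjusted p = 0.016). The rise of 229400_at turned to a log2 fold change of -0.17 under quantile normalization and lost its call without array C labelled ERG or without control array C, and that of 207373_at lost its call without array C labelled ERG. Over all genes with several called probe sets, 2508 of 4989 (50.3%) had opposite calls between the arrays labelled ERG and control, so the 2 of 4 HOX genes are no more than the array shows at large.

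**Figure D3:**
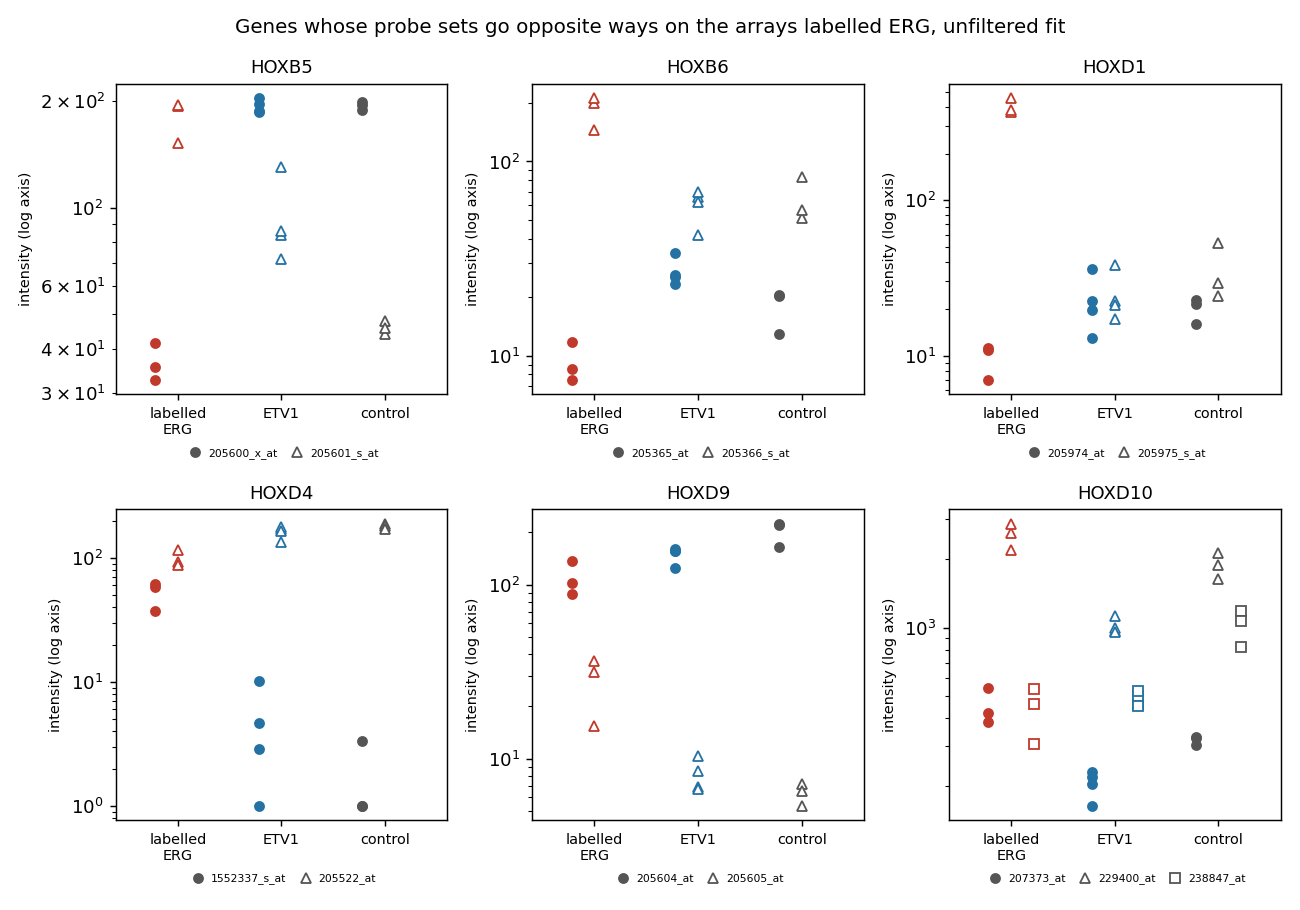
Points are intensities of single arrays on a log axis for the 6 HOX genes whose probe sets were called in opposite directions between the arrays labelled ERG and control when dim probe sets were kept, with a marker shape for each probe set. In HOXB5 the arrays labelled ERG are the lowest for 205600_x_at and the highest for 205601_s_at.

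Keeping dim probe sets, 6 of 8 HOX genes with several called probe sets had opposite calls, against 53.8% of all such genes. The added genes were HOXB6, HOXD1, HOXD4 and HOXD9. HOXD4, for example, read 61.4, 37.4 and 57.8 on the arrays labelled ERG, against 1, 3.36 and 1 on control arrays with 1552337_s_at, and 93.5, 87.8 and 116 on the arrays labelled ERG, against 190, 180 and 173 on control arrays with 205522_at. HOXD9 read 31.4, 36.6 and 15.5 on the arrays labelled ERG and 5.35, 7.16 and 6.5 on control arrays with 205605_at, the opposite of its tested probe set. Such control values lie near the low end of the deposited table, in which 12767 values are 1 and the lowest is 0.48.

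By cluster, the tested probe sets of the arrays labelled ERG were 7 higher and 3 lower of 11 in HOXB, 4 higher and 2 lower of 8 in HOXC, and 5 higher and 4 lower of 9 in HOXD, to be read against 43.3% higher and 35.1% lower over all tested probe sets. Under quantile normalization HOXC had 6 higher and 2 lower of 8. The median log2 fold change was 0.84 in HOXB, 0.59 in HOXC and 0.44 in HOXD, and that of HOXD turned to -0.17 under quantile normalization. On ETV1 arrays HOXB had 3 higher and 0 lower of 11 (median 0.17), HOXC 0 higher and 1 lower of 8 (median -0.11), and HOXD 0 higher and 3 lower of 9 (median -0.40), against 10.4% higher and 13.1% lower over all tested probe sets, and the 3 HOXD calls are 1 gene. Without the 3 HOXD10 probe sets, HOXD intensity summed to 1878 to 2329 on arrays labelled ERG, 1190 to 1310 on ETV1 arrays and 1281 to 1609 on control arrays, so the ETV1 and control ranges met when HOXD10 was left out. By position, paralog groups 1 to 3 had 2 higher and 0 lower of 3 probe sets on the arrays labelled ERG, groups 4 to 8 had 9 higher and 5 lower of 14, and groups 9 to 13 had 6 higher and 4 lower of 12. The 2 calls in groups 1 to 3 are HOXA2 and HOXD1, which entered the test through the arrays labelled ERG alone. All counts and medians by cluster and position include the probe sets that entered through 1 kind of array, and they support nothing. On ETV1 arrays groups 1 to 3 had 0 called of 3, groups 4 to 8 had 2 higher and 1 lower of 14, and groups 9 to 13 had 1 higher and 3 lower of 12. On ETV1 arrays all 9 tested HOXD probe sets had a log2 fold change below 0, 3 of them called, while signs were mixed in HOXB and HOXC. Below the filter HOXD signs were mixed too: HOXD1 205974_at (0.08), HOXD4 1552337_s_at (0.20), HOXD9 205605_at (0.11) and HOXD12 (0.17) were above 0. HOXD13 207397_s_at (-0.34) and 207398_at (-0.33) were below 0. On the arrays labelled ERG signs were mixed in all 3 clusters. No test was made over clusters or positions.

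**Figure D4:**
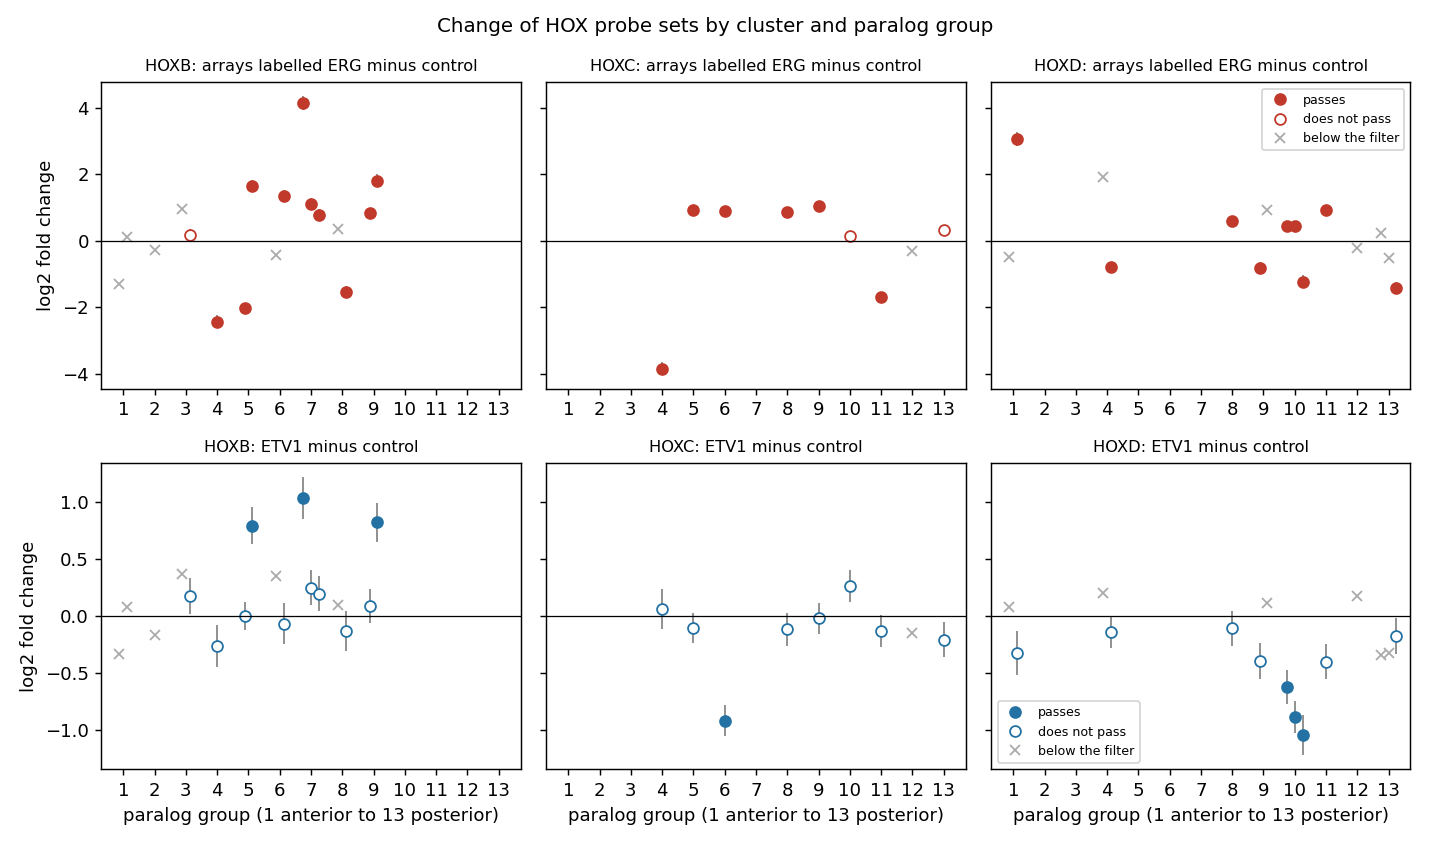
Log2 fold changes of HOX probe sets (points, with SE bars for the tested ones) against paralog group, for the arrays labelled ERG minus control above and ETV1 minus control below, by cluster; the vertical scales differ between the rows, and HOXA2, alone in its cluster, is not drawn. Filled points passed the test: they lie on both sides of 0 in every cluster above, and below only HOXB5, HOXB7, HOXB9, HOXC6 and HOXD10 are filled.

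The arrays labelled ERG and the ETV1 arrays were also compared directly, which tests whether the 2 differ. Of 29 HOX probe sets 18 were higher and 8 lower on the arrays labelled ERG than on ETV1 arrays, and over all tested probe sets 82.1% were called, 45.6% higher and 36.5% lower. Arrays did not overlap for 25 of the 26 called, against 78.5% of all tested probe sets. Without the filter, 22 of 42 were higher and 12 lower, against 69.9% called of all probe sets, 36.8% higher and 33.1% lower. The median log2 fold change was 0.75 for HOX and 0.20 for all tested probe sets. The filtered HOX counts and median include the probe sets that entered the test through the group where they are high. They are given as descriptions and support nothing. HOXC6, higher than control on the arrays labelled ERG and lower on ETV1 arrays, differed by 1.82 on the log2 scale (SE 0.14, adjusted p = 4.5e-09). HOXD10 differed by 1.32 (SE 0.14) on 229400_at and 1.07 (SE 0.15) on 207373_at, but on 238847_at both sets of arrays were below control and the difference was -0.18 (SE 0.18, adjusted p = 0.34). HOXD11 differed by 1.32 (SE 0.15), HAGLR 228601_at by 2.22 (SE 0.16) and HAGLROS by 3.91 (SE 0.20). HOXB5 205601_s_at, HOXB7 204778_x_at and HOXB9 226461_at, each higher than control in both, were higher still on the arrays labelled ERG, by 0.87 (SE 0.16), 3.12 (SE 0.19) and 0.99 (SE 0.17). HAGLROS and HOXB7 204778_x_at entered the test through the arrays labelled ERG alone, so their differences are descriptions. HOXB3 228904_at and HOXC10 did not pass, with differences of 0.02 (adjusted p = 0.92) and -0.13 (adjusted p = 0.40), and HOXC10 turned to 0.29 under quantile normalization. The comparisons with control share the control arrays, so HOX values that move alike in both are not independent of one another.

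The 13 dim probe sets are described without a test. HOXB1, a hindbrain gene induced by retinoic acid, read 11.3, 13.2 and 7.82 on the arrays labelled ERG, 25.3 to 47.2 on ETV1 arrays and 30.9, 59.0 and 63.3 on control arrays with 208224_at. HOXB2 read 22.2 to 29.0 on the arrays labelled ERG, 26.3 to 34.4 on ETV1 arrays and 25.3 to 56.6 on control arrays. HOXC12 read 17.3 to 34.9 on the arrays labelled ERG, 18.2 to 39.1 on ETV1 arrays and 25.8 to 42.8 on control arrays. HOXD12, a limb gene, read 3.14 to 6.04 on the arrays labelled ERG, 10.2 to 12.9 on ETV1 arrays and 6.33 to 11.8 on control arrays. For HOXB3 208414_s_at the ETV1 arrays read 19.1 to 26.9, above the 12.0 to 17.5 of control arrays, and the arrays labelled ERG 34.3 to 49.9. The remaining dim probe sets belong to HOXB6, HOXB8, HOXD1, HOXD4, HOXD9 and HOXD13 and to a second HOXB1 probe set.

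Partners and regulators of HOX genes were listed as well, to be read against the same backgrounds. Of 21 tested probe sets of TALE cofactors, 9 were higher and 7 lower on the arrays labelled ERG, and 1 was higher and 6 lower on ETV1 arrays. PBX2, a partner of HOX proteins on DNA, averaged 220 on the arrays labelled ERG, 34.9 on ETV1 arrays and 15 on control arrays (202876_s_at), with log2 fold changes against control of 2.92 (SE 0.16) on arrays labelled ERG and 0.69 (SE 0.15) on ETV1 arrays. MEIS1, which steers HOX proteins to their targets in leukaemia, averaged 50.5 on ETV1 arrays and 82.3 on control arrays (log2 fold change -0.58, SE 0.16, adjusted p = 0.012). PKNOX1 had probe sets that disagreed. On 221883_at its log2 fold change against control was 0.40 (SE 0.17, adjusted p = 0.041, a call lost in 11 alternatives) on the arrays labelled ERG and -0.67 (SE 0.16) on ETV1 arrays. On 204196_x_at it was -2.36 (SE 0.21) on the arrays labelled ERG and 0.34 (adjusted p = 0.24) on ETV1 arrays. The PBX2 means on ETV1 and control arrays, and the 204196_x_at mean on the arrays labelled ERG, lie below the array medians. MEIS1 lies above them on average only on control arrays. Such probe sets may have entered the test through the group where they are high, so their fold changes are given as descriptions and support nothing.

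Polycomb genes, whose products keep HOX clusters silent, had 1 of 58 tested probe sets higher and 18 lower on ETV1 arrays, with a median log2 fold change of -0.22, where over all tested probe sets 10.4% were higher and 13.1% lower and the median was -0.03. Without the filter 1 of 70 was higher and 12 lower, against 5.77% higher and 6.39% lower of all. On the arrays labelled ERG 24 of 58 were higher and 22 lower, against 43.3% and 35.1% of all. PCGF5 and PCGF6, subunits of variant Polycomb complexes, were among the lower ones on ETV1 arrays: PCGF5 averaged 447 there and 956 on control arrays (226326_at, log2 fold change -1.04, SE 0.17), and PCGF6 averaged 360 on ETV1 arrays and 659 on control arrays (log2 fold change -0.83, SE 0.13). PHC2, another subunit, gave -0.98 (SE 0.21). PCGF5 differed less on 227935_s_at, with means of 402 on ETV1 arrays and 436 on control arrays. The Trithorax and MLL list, which holds the opposing activators, had 17 of 51 higher and 25 lower on the arrays labelled ERG, and 3 higher and 7 lower on ETV1 arrays, where quantile normalization called 14 lower. PSIP1, which tethers MLL to chromatin, averaged 450 on ETV1 arrays and 965 on control arrays (205961_s_at, log2 fold change -1.06, SE 0.15, adjusted p = 9.4e-05). KMT2A, the MLL methyltransferase itself, averaged 33.4 on the arrays labelled ERG and 246 on control arrays (212079_s_at, log2 fold change -2.50, SE 0.24). This KMT2A mean on the arrays labelled ERG lies below the medians of those arrays, so the fold change is given as a description.

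GMNN and CTCF were listed as other upstream regulators, of which 8 probe sets were tested, with 4 higher and 3 lower on the arrays labelled ERG (1 lower under quantile normalization) and 1 higher and 2 lower on ETV1 arrays. Over all tested probe sets 43.3% were higher and 35.1% lower on the arrays labelled ERG, and 10.4% higher and 13.1% lower on ETV1 arrays. GMNN encodes geminin, which limits DNA replication and binds HOX proteins and Polycomb. It read 2508, 2855 and 2350 on the arrays labelled ERG, 609, 589, 570 and 613 on ETV1 arrays and 1498, 1284 and 1026 on control arrays. Log2 fold changes against control were 1.02 (SE 0.15) on the arrays labelled ERG and -1.06 (SE 0.14) on ETV1 arrays. CTCF, which insulates the domains of HOX clusters, read 1475, 1372 and 1669 on the arrays labelled ERG, 562, 557, 536 and 520 on ETV1 arrays and 1101, 969 and 755 on control arrays, with log2 fold changes against control of 0.68 (SE 0.15) on the arrays labelled ERG and -0.76 (SE 0.14) on ETV1 arrays. Under quantile normalization the CTCF value on the arrays labelled ERG was 0.16 and no longer called (adjusted p = 0.15).

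All 6 epithelial markers had probe sets on the array, which would hold for any sample. EPCAM averaged 5815 on the arrays labelled ERG, 1592 on ETV1 arrays and 2981 on control arrays. The epithelial markers did not move 1 way on the arrays labelled ERG, where 4 of 9 tested probe sets were higher and 3 lower. Under quantile normalization 3 were higher and 5 lower. CDH1 201130_s_at averaged 27.7 on the arrays labelled ERG and 146 on control arrays, and the brighter CDH1 probe set 3051 and 3293. The epithelial markers summed to 26100 to 31030 on arrays labelled ERG, 16652 to 19021 on ETV1 arrays and 15138 to 21290 on control arrays. Basal markers, 6 of 8 measured, summed to 30696 to 33367 on arrays labelled ERG, 35982 to 40374 on ETV1 arrays and 25271 to 29018 on control arrays. Of 14 tested basal probe sets only 1 was higher and 7 lower on the arrays labelled ERG, against 43.3% and 35.1% of all tested probe sets. KRT5 averaged 11269 there and 5212 on control arrays, and ITGB4 204989_s_at 93.7 and 1430. All 6 fibroblast markers were measured, with sums of 1119 to 1625 on arrays labelled ERG, 1628 to 1669 on ETV1 arrays and 1558 to 1873 on control arrays. Of 5 leukocyte markers 3 were measured, with sums of 76 to 142 on arrays labelled ERG, 237 to 264 on ETV1 arrays and 229 to 295 on control arrays. Neuroendocrine markers, 3 of 4 measured, summed to 109 to 125 on arrays labelled ERG, 407 to 509 on ETV1 arrays and 359 to 423 on control arrays. The 5 endothelial markers summed to 281 to 300 on arrays labelled ERG, 1427 to 1619 on ETV1 arrays and 1586 to 1754 on control arrays, nearly all from PECAM1, while CDH5 averaged 10.2 on arrays labelled ERG, 13.9 on ETV1 arrays and 14.9 on control arrays. Luminal markers, 7 of 9 measured, summed to 13318 to 13444 on arrays labelled ERG, 7737 to 10417 on ETV1 arrays and 10184 to 12150 on control arrays. Of 7 tested luminal probe sets 2 were higher and 3 lower on the arrays labelled ERG. KRT8 averaged 3115 there and 1508 on control arrays, and KLK3 231629_x_at 131 and 573. None of these lists has a marker listed at 0, since the lowest deposited value is 0.48. Between the arrays labelled ERG and control the fibroblast ranges overlap and those of the other 6 lists do not. Between ETV1 and control arrays the basal ranges do not overlap, ETV1 being higher, and those of the other 6 lists overlap. On ETV1 arrays 7 of 14 tested basal probe sets were called higher and 0 lower, against 10.4% higher and 13.1% lower of all tested probe sets. The part of these markers in the HOX results was not tested.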

How the data were processed

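Affymetrix HG-U133 Plus 2.0 arrays measured RNA of RWPE-1 clones on 10 arrays: 3 labelled ERG, 4 ETV1 and 3 control. The deposited values are linear intensities of probe sets. The summarisation and normalization behind them are not given in the sources used, and many values sit at 1. Per the labels, total RNA was extracted with Trizol and labelled cRNA prepared by the standard Affymetrix protocol. With so few arrays per group, each mean has limited precision.

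Probe sets were named from GEO's platform annotation: 41091 name 1 gene, 1801 several. Arrays were not renormalised. limma 3.58.1 (R 4.3.3; lmFit and eBayes) was run on log2(intensity + 16) of the 25969 probe sets that name 1 gene and lie above their array's median on at least 3 arrays, fitting the 3 groups together, which leaves 7 residual degrees of freedom. The two-sided p-values were adjusted by Benjamini-Hochberg across those probe sets and called under 0.05. Single probe sets were also compared by exact permutation over arrays, which cannot give p below 0.1 with 3 arrays a group or below 0.029 with 4 and 3; the called HOX probe sets of ETV1 versus control had at most 0.057. On simulated arrays of the 25969 probe sets, a log2 change of 1 was recovered in 83.6% for ERG versus control, 71.6% for ETV1 versus control and 83.6% for ERG versus ETV1. A change of 0.5 was recovered in 10.4% for ERG versus control, 8.96% for ETV1 versus control and 16.4% for ERG versus ETV1. These shares hold for the simulated arrays, as the Benjamini-Hochberg cutoff depends on how many probe sets differ.

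All HOX genes of the rule are named. Per-array values are given for many of the called probe sets that do not overlap between groups. They are also given for HOX genes whose tested probe sets were called in opposite directions. Others, such as HOXB6, HOXC8 and HOXD8 on the arrays labelled ERG, have a fold change alone. Up to 3 called probe sets are given per other list and comparison. The members and lists were chosen with earlier results of these data known. An item is not reported here. The replicate letters do not pair the arrays. Alternatives covered normalization, filter, probe set choice, limma settings, pseudocount, threshold, the replicate letter and leaving out each array. Promoter windows are RefSeq's on GRCh38.p14; the files name no build.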

Additional observations from a re-analysis of the deposited data

Results flagged for a closer look

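In the group of 4 ETV1 arrays, 1 array lay far from the other 3 for 4 of the 42 HOX probe sets, by Dixon's ratio above 0.829; chance gives about 1 such group in 20. HOXB1 243811_at, a dim probe set, read 15.04 on ETV1 array A, against 5.79 to 6.59 on the others. HOXB3 228904_at read 263.93 on ETV1 array D, against 224.82 to 227.81 on the others. HOXC9 read 48.07 on ETV1 array D, against 64.99 to 68.07. HOXD9 205604_at read 125.11 on ETV1 array D, against 156.6 to 159.82. None of these probe sets was called between ETV1 and control arrays.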

How the results depend on the processing

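All 7 HOX calls of ETV1 versus control, 23 of the 26 of ERG versus control and 24 of the 26 of ERG versus ETV1 kept direction and call in every alternative that tested them; the exceptions were HOXB5 205600_x_at and HOXD10 207373_at and 229400_at for ERG versus control, and HOXD4 205522_at and HOXD9 205604_at for ERG versus ETV1. The replicate letters, shared by the groups, had correlations of deviations from -0.10 to 0.09, so they pair nothing; with the replicate block the counts stayed at 26 for ERG versus control, 7 for ETV1 versus control and 26 for ERG versus ETV1, and no HOX call changed. Leaving out each array gave 24 to 26 called for ERG versus control (15 to 17 higher, 9 lower), 7 to 9 for ETV1 versus control (3 higher, 4 to 6 lower) and 25 to 26 for ERG versus ETV1 (18 higher, 7 to 8 lower).

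Some counts moved by construction, with fewer probe sets tested. A 75th percentile filter left 14 HOX probe sets, with 14 called for ERG versus control (10 higher, 4 lower) and 13 for ERG versus ETV1 (10 higher, 3 lower). Without suffixed probe sets, 16 were called for ERG versus control (9 higher), 4 for ETV1 versus control (1 higher) and 15 for ERG versus ETV1 (9 higher). The brightest probe set per gene, by average log2(intensity + 16), gave 2 for ETV1 versus control (0 higher, 2 lower), and the mean per gene gave 11 higher for ERG versus control and 2 lower for ETV1 versus control. Array weights gave 17 for ETV1 versus control (8 higher, 9 lower); their estimate did not converge, and the cause was not tested.

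Directions reversed as follows; the cause was not tested. For ERG versus control, HOXD10 229400_at was -0.17 under quantile normalization, also unfiltered, and -0.11 with the mean per gene. For ERG versus ETV1, HOXC10 was 0.29 under quantile normalization, also unfiltered, and 0.30 under median centring; HIBADH 224812_at was -0.010 under quantile normalization, also unfiltered; HOXD9 205604_at was 0.0097 and CBX5 212126_at 0.40 under median centring. For ETV1 versus control, HOXB5 205600_x_at was 0.39 with the mean per gene, and array weights gave -0.50 for RARG 204188_s_at, 0.28 for HOXA2 and 0.17 for HOXB8 229667_s_at. The unfiltered quantile setting and the sums without HOXB7, HOXC6 or HOXD10 were chosen after seeing the data. Changes of 0.5 on the log2 scale were rarely recovered on simulated arrays. On the real arrays HOXD10 229400_at was called at 0.44 for ERG versus control, so that recovery may not carry over to these tests. Small HOX changes may still have been missed.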

Other observations

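Genes that flank the HOX clusters, to be read against the 23.5% of all probe sets called for ETV1 versus control and 78.4% for ERG versus control, also differed. Beside HOXD, 6 of 9 tested probe sets were lower and 0 higher on ETV1 arrays, and without the filter 1 of 10 was lower. The 6 belong to LNPK, an endoplasmic reticulum shaping gene, and ATP5MC3, a subunit of ATP synthase. LNPK 229173_at averaged 131 on ETV1 arrays and 225 on control arrays (log2 fold change -0.70, SE 0.18) and lost its call without control array A or B, and ATP5MC3 228168_at (log2 fold change -0.50, adjusted p = 0.045) lost its call in 15 alternatives. On the arrays labelled ERG 6 of these 9 were higher and 2 lower. Beside HOXC, CBX5, which encodes the heterochromatin protein HP1 alpha, averaged 1242 on ETV1 arrays and 2677 on control arrays (212126_at, log2 fold change -1.09, SE 0.17), but on 231862_at it averaged 852 on ETV1 arrays and 528 on control arrays (log2 fold change 0.68, SE 0.17, adjusted p = 0.0081). These probe sets of 1 gene were thus called in opposite directions, and in all 1 of 14 probe sets of that flank was higher and 2 lower. Beside HOXA 2 of 15 were higher and 1 lower (3 under quantile normalization), with SNX10, an endosomal sorting gene, at 279 on ETV1 arrays and 617 on control arrays (log2 fold change -1.09, SE 0.18). Beside HOXB 2 of 15 were higher and 4 lower.

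In the retinoic acid pathway 8 of 25 tested probe sets were higher and 11 lower on the arrays labelled ERG, and 3 higher and 1 lower on ETV1 arrays. Over all tested probe sets 43.3% were higher and 35.1% lower on the arrays labelled ERG, and 10.4% higher and 13.1% lower on ETV1 arrays. Without the filter 1 of 44 was higher and 1 lower on ETV1 arrays. The receptor gene RARG averaged 28.3 on the arrays labelled ERG and 298 on control arrays (204188_s_at, log2 fold change -2.76, SE 0.23), and RARB, another receptor gene, 10.7 on the arrays labelled ERG and 148 on control arrays (208530_s_at, log2 fold change -2.66, SE 0.21). ALDH1A2, which makes retinoic acid, averaged 88.0 on the arrays labelled ERG and 9.77 on control arrays (207015_s_at, log2 fold change 2.09, SE 0.27). The RARG and RARB means on the arrays labelled ERG, and the ALDH1A2 mean on control arrays, lie below the medians of those arrays. These 3 fold changes are therefore given as descriptions and support nothing. On ETV1 arrays PLAAT4, a retinoid-induced gene, averaged 286, against 174 on control arrays (log2 fold change 0.67, SE 0.13).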
